A study of Saccharomyces cerevisiae with 2 samples.

Results

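The genes described here encode all the cytosolic ribosomal proteins of the small subunit in the yeast Saccharomyces cerevisiae, from RPS0A to RPS31. They were taken by systematic name from a table of run-on counts, in which they are 56 of 6448 rows, and all 56 were found. Of these, 48 form 24 pairs of an A and a B copy, and 8 are present once, so that the genes make up 32 protein families. Their transcription was high: in the wild type all 56 were within the top 10% of protein-coding genes by counts per kb of coding sequence, and 51 were within the top 5%.

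The assay was BioGRO-seq, in which cells are permeabilised and RNA polymerases already engaged on genes extend their transcripts with a biotin-labelled nucleotide, so the purified RNA reports transcription rather than RNA stock. The series asks how the cytoplasmic 5′ exonuclease Xrn1, which degrades mRNA, influences transcription. There was 1 library from the haploid laboratory strain BY4741 as the wild type and 1 from the Euroscarf strain that lacks XRN1, both from cultures at an OD600 of 0.55 and both with a run-on of 5 min at 30 °C. The libraries held 64934493 and 46396400 counts, and XRN1 itself had 41954 and 53, so the labels matched the target gene. The number of independent cultures is 1 per strain, so differences between the strains carry no replicate check and no p-value.

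The small subunit of the ribosome binds mRNA and holds the decoding site, and it is built from rRNA and a single copy of each of these proteins. Ribosomal protein genes are among the most transcribed genes of a growing yeast cell and are controlled together, mainly through Rap1, Fhl1, Ifh1, Sfp1 and Hmo1 at their promoters and through the TOR and protein kinase A pathways. Many exist in pairs left by a whole-genome duplication, and introns, which are rare in this yeast, are common among them. Here 36 of the 56 genes have an intron within the annotated gene.

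How well reads can be assigned within a pair depends on how far the copies have diverged. The coding sequences of the 24 pairs were between 84.3% and 99.2% identical, with a median of 92.7%, and 9 pairs encode identical proteins. In the pairs that later prove most unlike in ratio, whether reads can be told apart also depends on read length, which is not known. RPS29A and RPS29B, for a zinc-binding protein of the subunit head, differ at 14 of 171 bases, and RPS26A and RPS26B, for a protein at the mRNA exit channel, differ at 28 of 360. Their coding strands are shown 5′ to 3′ from the RefSeq R64 genome, with the bases that differ between the copies in capitals; for RPS26 the stretch is the last 180 bases, with 19 of the differences. RPS29A is at chrXII:898651-898821 on the plus strand, RPS29B at chrIV:340628-340798 on the minus strand, the RPS26A stretch at chrVII:148229-148408 on the minus strand and that of RPS26B at chrV:424132-424311 on the plus strand.
RPS29A: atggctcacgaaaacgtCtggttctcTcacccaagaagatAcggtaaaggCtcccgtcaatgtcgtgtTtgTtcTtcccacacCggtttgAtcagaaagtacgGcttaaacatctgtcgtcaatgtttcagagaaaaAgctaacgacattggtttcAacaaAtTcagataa
RPS29B: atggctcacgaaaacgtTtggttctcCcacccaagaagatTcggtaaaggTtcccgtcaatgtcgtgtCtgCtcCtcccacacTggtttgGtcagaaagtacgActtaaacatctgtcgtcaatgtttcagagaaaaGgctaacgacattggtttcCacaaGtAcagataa
RPS26A: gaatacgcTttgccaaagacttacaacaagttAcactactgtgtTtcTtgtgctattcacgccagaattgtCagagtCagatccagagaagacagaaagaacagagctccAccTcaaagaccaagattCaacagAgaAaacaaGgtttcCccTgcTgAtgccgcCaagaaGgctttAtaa
RPS26B: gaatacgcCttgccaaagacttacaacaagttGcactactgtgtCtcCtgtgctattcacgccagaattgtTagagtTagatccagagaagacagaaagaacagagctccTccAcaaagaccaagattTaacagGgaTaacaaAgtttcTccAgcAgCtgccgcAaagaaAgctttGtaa

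In both of these pairs every stretch of 50 bases within the coding exons occurs once in the genome. Of the stretches of 25 bases, 93.9% do so in RPS29 and 88.7% in RPS26. The measure over 50 bases was at least 80% for 48 of the 56 genes. It was lower for 8 genes, among them both copies of RPS24 (61.5%), RPS4 (52.3%) and RPS6 (27.3%), so the counts of these 8 are the most open to being split or lost between copies. How reads with several matches were treated, and how long the reads were, is information not given in the sources used here. These 8 genes had a median level of 681 counts per kb of coding exons and per 1000000 counts in the wild type, against 1198 for the other 48, and the part of read assignment in this was not tested. Their median log2 ratio between the strains was −0.16, against −0.17 for the other 48.

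The small subunit genes were slightly lower as a group in the xrn1 deletion strain, and they kept close together. Ratios compare the deletion strain with the wild type and are set relative to the median protein-coding gene, which hides any change shared by the whole genome. The median log2 ratio was −0.17, with quartiles of −0.31 and −0.10, and 52 of the 56 genes (92.9%) were below the median gene, where by construction 50.0% of the 5198 tested genes lie (those for proteins with 100 counts or more). For all these genes the quartiles were −0.22 and 0.26. After removal of the trends with mean count and GC content, the small subunit median was −0.13 and fewer of these genes were below 0. RPS7A, RPS27B and RPS30B were among those that then lay above it. The small subunit genes took 3.14% of the protein-coding counts of wild-type cells (95% exact binomial interval 3.136% to 3.145%) and 2.73% of those without Xrn1 (2.727% to 2.736%). Intervals here and below cover counting error at most, not the spread between cultures.

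No small subunit gene reached a 2-fold change in either direction, a size that 4.06% of all genes passed upward and 1.52% downward. At a smaller size of 0.32 on the log2 scale (a ratio of 0.8 or less), with a counting interval that excluded no change, 14 of the 56 (25%) were lower, against 16.0% of all genes. At that size 0 were higher, against 20.4% of all genes, although removal of the trends with mean count and GC content put 1 gene, RPS22B, past it at 0.34. The other 42 were within 0.32 of the median gene. Of the 14 lower genes, 12 are named here: RPS2, RPS9A, RPS10B, RPS13, RPS16B, RPS18A, RPS22A, RPS24B, RPS25A, RPS28A, RPS28B and RPS29A.

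**Figure D1:**
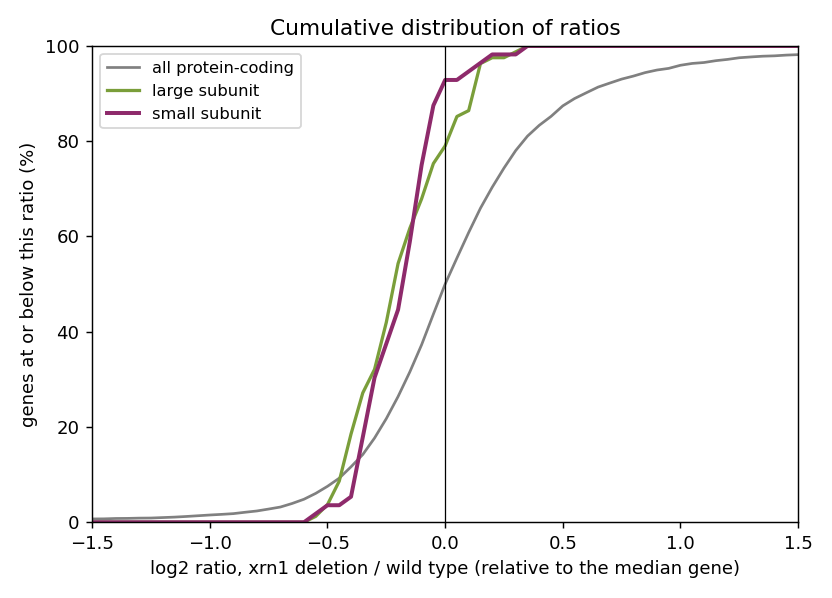
Cumulative percentage of genes at or below each log2 ratio (deletion strain over wild type, relative to the median gene) for all protein-coding genes with at least 100 counts, the large subunit genes and the small subunit genes. The small subunit curve has reached 92.9% at a ratio of 0, where the curve of all genes is at 50.0%.

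The large subunit genes were the closest comparison. Their median log2 ratio was −0.21 over 81 genes, with 64 (79.0%) below the median gene, 25 (30.9%) lower by at least 0.32 and 1 higher. Their SD across genes was 0.21, against 0.16 across the small subunit genes. Genes for the small subunit of the mitochondrial ribosome, which is encoded separately and serves respiration, lay on the other side of the median gene. Of the 31 such genes found, out of 32 listed, 25 were at or above it, the median was 0.19, 10 (32.3%) were higher by at least 0.32 and 1 was lower. The difference between these lists was not tested, since 1 library per strain allows no test.

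At the low end of the small subunit genes, RPS28A (YOR167C, chromosome XV, 648804 to 649007) had 25511 wild-type counts against 12139 in the mutant. It was 1.47-fold lower (1.44 to 1.51). RPS28 is a small protein of the subunit head, and in yeast it is known to bind the RPS28B mRNA and to promote its decapping together with Edc3, the step before decay by Xrn1. RPS28B (YLR264W, chromosome XII, 673131 to 673334) drew 19886 and 10711 counts, which put it 1.302-fold lower (1.27 to 1.33). With both copies summed, RPS28 had the lowest ratio of the 24 pairs, at −0.48.

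RPS13 (YDR064W, chromosome IV, 579458 to 580452), a body protein present as a single gene, drew 84255 and 41279 counts, which put it 1.43-fold lower (1.41 to 1.45). RPS2 (YGL123W), which lines the mRNA entry channel, drew 66588 and 35369 counts, which put it 1.32-fold lower (1.303 to 1.34). RPS10B (YMR230W), for a protein of the beak of the head, had 10722 and 5706 counts, the fewest in the group, and likewise lay 1.32-fold lower (1.28 to 1.36). These 4 lowest genes, RPS28A included, comprise both single genes and copies of pairs.

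Only 4 of the 56 genes were above the median gene. RPS29B (YDL061C) had 28218 wild-type counts against 24526 in the mutant and was 1.24-fold higher (1.22 to 1.26). Its log2 ratio of 0.31 was the single value more than 1.5 interquartile ranges outside the quartiles of the group, where the upper limit was 0.21. RPS26A (YGL189C) drew 23086 and 18330 counts, which put it 1.13-fold higher (1.11 to 1.15). RPS22B (YLR367W, chromosome XII, 856442 to 857317) drew 105917 and 80428 counts, which put it 1.08-fold higher (1.07 to 1.09). RPS0A (YGR214W), for a protein at the solvent side of the subunit, drew 29571 and 21814 counts, which put it 1.05-fold higher (1.03 to 1.07). All 4 of these ratios are under the size used for a call.

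**Figure D2:**
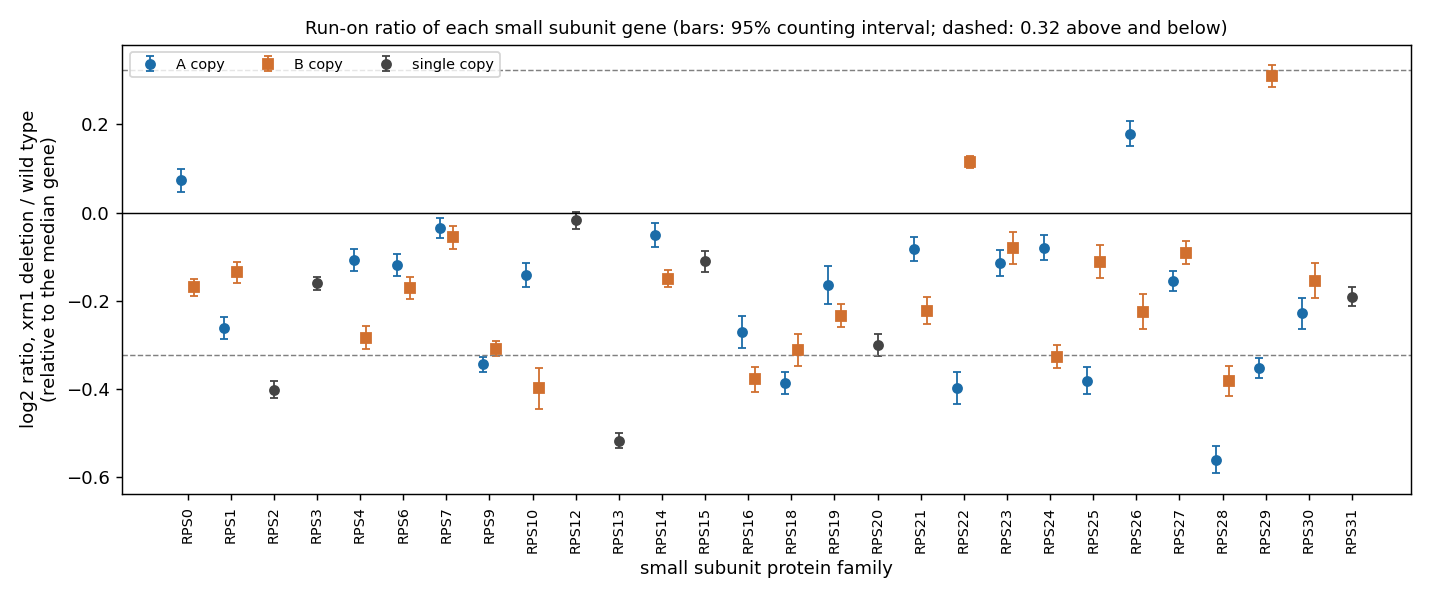
Log2 ratio (deletion strain over wild type, relative to the median gene) of 49 of the genes by protein family, with A copies as blue circles, B copies as orange squares and single genes in grey; bars are 95% counting intervals and dashed lines mark 0.32 above and below the median gene. RPS29B, RPS26A, RPS22B and RPS0A lie above 0, and RPS28A and RPS13 lie lowest.

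The 8 single genes were all below the median gene, with log2 ratios from −0.52 to −0.02 and a median of −0.18. RPS13 and RPS2 were the lowest of them. RPS20, of the head, was at −0.30 with 33960 wild-type counts and 19348 in the mutant. RPS31, which is made as a fusion to ubiquitin, was at −0.19 with 44799 and 27534 counts. RPS3, which lies at the mRNA entry and has the second largest count of the group, was at −0.16 with 93211 and 58492 counts. RPS15, at the top of the head, was at −0.11 with 36912 and 23975 counts. The beak protein gene RPS12 lay close to the median gene, at −0.02, with a counting interval that includes 0 and with 55504 and 38463 counts.

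In most pairs the copies differed by less than 0.32 in log2 ratio, but across pairs their ratios did not rise and fall together. In 20 of the 24 pairs both copies were below the median gene. Taken separately, 22 of the A copies and 22 of the B copies were below it. The difference between the copies' log2 ratios had a median size of 0.12, with a smallest value of 0.02 and a largest of 0.66. The counting interval of the difference excluded 0 in 20 pairs, yet in only 3 pairs did the copies differ by at least 0.32. Among the 35 pairs of the large subunit, P-stalk pairs included, 5 (14.3%) differed by that much and the median size was 0.13. Since the ratio of a copy to its partner is taken within each library, the scaling has no part in these differences. The A copy had the higher ratio in 14 pairs and the B copy in 10, and the median log2 ratio was −0.16 over the A copies and −0.20 over the B copies. Across the 24 pairs, which share both libraries, the ratios of the A and the B copies had a Spearman rho of 0.09 and a Pearson r of −0.04.

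RPS29 was the pair whose copies differed most in log2 ratio. RPS29A had 40665 wild-type counts and 22342 in the mutant, a log2 ratio of −0.35, whereas RPS29B was the highest of the group as given above. The copies differed 1.58-fold in their ratios (1.54 to 1.62). RPS29A held 59.0% of the pair's counts in the wild type (58.7% to 59.4%) and 47.7% without Xrn1 (47.2% to 48.1%), so the larger copy was A in the wild type and B in the deletion strain. The log2 ratio of the summed pair was −0.04. The proteins differ at 5 of 56 residues.

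RPS22 was the next pair. It encodes a body protein, and its copies differ in structure: RPS22A (YJL190C, chromosome X, 74910 to 75302) has no intron, whereas the annotated intron of RPS22B contains the snoRNA gene SNR44. RPS22A had 18513 and 9859 counts, a log2 ratio of −0.40, and RPS22B was at 0.11, a difference of 1.43-fold (1.39 to 1.46). Whether reads in introns were counted is not known, and if so those of the snoRNA cannot be told apart from those of RPS22B, which is the only gene of the group that overlaps another annotated gene.

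RPS26 was the third pair past this size. RPS26A was at 0.18, while RPS26B (YER131W) had 13832 and 8304 counts and was at −0.22. They differed 1.32-fold (1.28 to 1.37), and RPS26A held 62.5% of the pair's wild-type counts (62.0% to 63.0%) and 68.8% of those in the mutant (68.3% to 69.4%). In contrast to RPS29, here the copy with more counts in the wild type had the higher ratio.

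Differences in the next pairs were smaller. RPS25A, for a head protein, was at −0.38 and RPS25B at −0.11, a difference of 1.21-fold (1.17 to 1.246), with 24710 and 13311 counts for the A copy and 14765 and 9586 for the B copy. RPS10A was at −0.14 with 26844 and 17073 counts, 1.195-fold above RPS10B (1.15 to 1.24). RPS24A was at −0.08 and RPS24B at −0.33, a difference of 1.19-fold (1.16 to 1.22), with 23985 and 15920 counts for the A copy and 33469 and 18715 for the B copy. RPS24 is among the pairs whose copies share long stretches, so this split is uncertain. RPS0B was at −0.17, below RPS0A by 0.24 on the log2 scale.

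**Figure D3:**
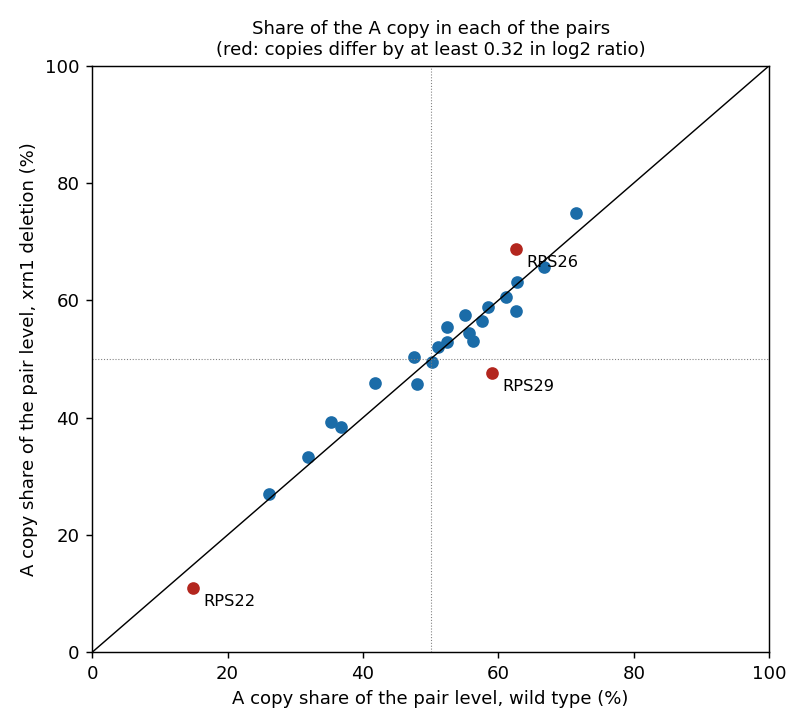
Share of the A copy in the summed level of its pair, in the wild type (horizontal axis, %) and in the deletion strain (vertical axis, %), for the 24 pairs; red points are the pairs whose copies differed by at least 0.32 in log2 ratio and the diagonal marks equal shares. In 22 pairs the share moved by less than 5 percentage points, and the largest move, in RPS29, was 11.4 points.

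In the remaining pairs the copies differed by less than in those above. RPS7 was among the most even, with the A copy at −0.03 and the B copy at −0.06. The RPS9 copies, for a body protein that acts in the accuracy of decoding, were at −0.34 and −0.31, and those of RPS18, a head protein, at −0.39 and −0.31. RPS16, whose tail reaches the tRNA in the peptidyl site, had its copies at −0.27 and −0.38. RPS23, at the decoding centre, had them at −0.11 and −0.08. RPS6, a phosphoprotein downstream of TOR, was at −0.12 and −0.17, and RPS27 at −0.15 and −0.09. The copies of RPS1 were at −0.26 and −0.14, those of RPS4 at −0.11 and −0.28, those of RPS14 at −0.05 and −0.15, those of RPS19 at −0.16 and −0.23, those of RPS21 at −0.08 and −0.22, and those of RPS30 at −0.23 and −0.15. RPS28 was the only pair with both copies lower by at least 0.32. In 10 other pairs 1 copy passed that size. RPS4 and RPS6 have long stretches shared between the copies, so their splits are uncertain.

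Levels differed more between genes than ratios did. Per kb of coding exons and per 1000000 counts, the wild-type level spanned a range of 10.8-fold and was highest for RPS22B, at 4150. RPS22B was followed by RPS29A at 3662 and RPS13 at 2845. Among the lowest was RPS19A at 406. Per kb of the whole gene with its intron and the snoRNA in it, RPS22B was at 1862. RPS13 has an intron as well, with 456 bases of coding exons in a gene of 995, whereas RPS29A has none. The ranks of these genes thus depend on the length used. The order of levels was close to the same in both libraries (Spearman rho 0.98 over the 56 genes, a description, since the genes share their length in both).

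Ribosomes need equal amounts of each protein, and the summed levels of the families were compared for that reason. Over the 32 families, the summed level in the wild type had a median of 1826 and was highest for RPS29, at 6204. RPS29 also has the shortest coding sequence, 171 bases per copy. Its summed count in the wild type, 68883, was below the 151009 of RPS9. The part of coding length in the order of the levels was not tested. The single genes lay between 1325 (RPS15) and 2845 (RPS13), with a median of 1466. A paired gene had a median of 1003 alone, and a pair together one of 1838. The median of the single genes thus lay between those of a paired gene and of a pair. Per kb of coding exons, RPS13, RPS3 and RPS12 were above the median pair. The coefficient of variation was 53.6% over the summed families and 60.2% over the genes. After summing, 30 of the 32 families had a ratio below that of the median gene, and the log2 ratios ranged from −0.52 for RPS13 to 0.05 for RPS22. RPS26, at 0.04, was the other family above.

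**Figure D4:**
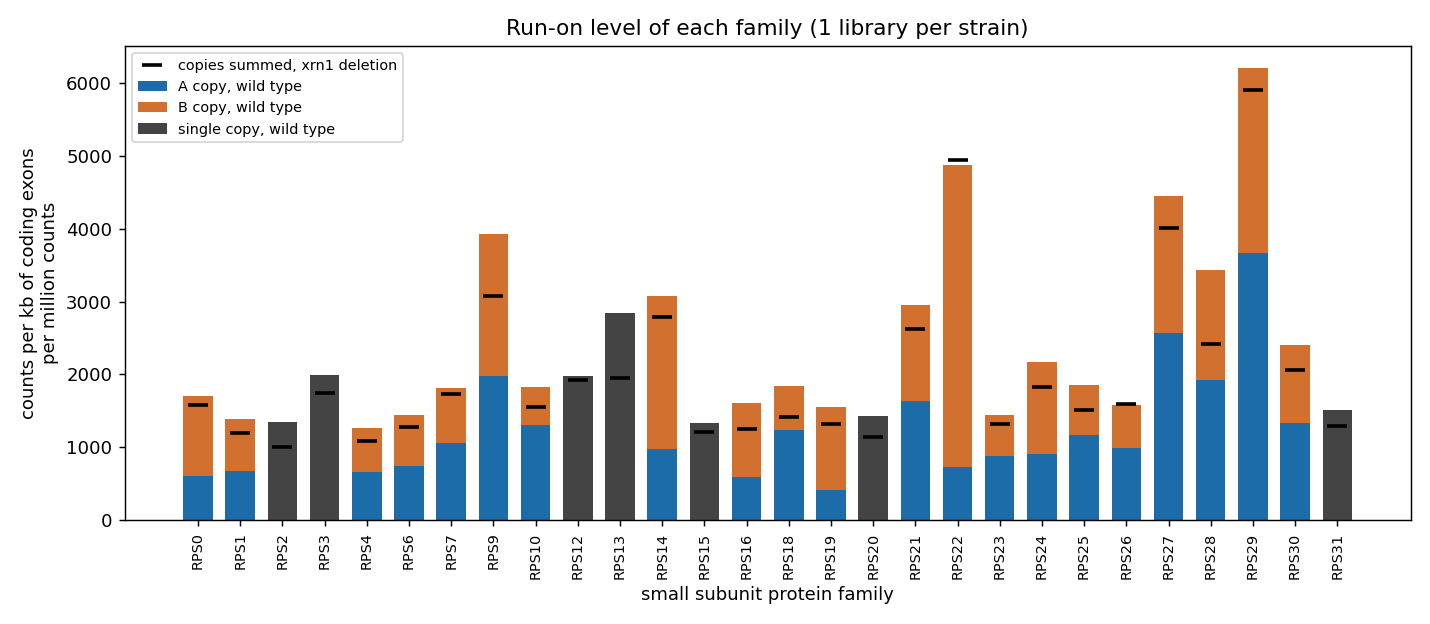
Level of 28 of the families in counts per kb of coding exons and per 1000000 counts, with the A copy (blue) and B copy (orange) stacked or the single gene (grey) for the wild type, and a black mark for the summed copies in the deletion strain; each strain is 1 library. RPS29, at 6204, has the highest sum, and the mark lies above the bar in RPS22 and RPS26.

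Within pairs, the A copy had the larger level in 16 of 24 pairs in the wild type and in 15 in the deletion strain. The larger copy exceeded the smaller 1.42-fold at the median of the pairs. It did so by at least 2-fold in 5 pairs, and was within 0.32 of it on the log2 scale in 7. RPS22 was the most uneven pair, with RPS22B 5.72-fold above RPS22A per kb of coding exons and 2.57-fold above it per kb of gene. RPS19B was 2.83-fold above RPS19A, with 32517 counts against 11474 in the wild type. RPS10A was 2.504-fold above RPS10B. RPS14B was 2.14-fold above RPS14A, with 56834 counts against 26335. RPS14, a platform protein, is known in yeast to bind the RPS14B transcript and to inhibit its splicing. RPS18A was 2.01-fold above RPS18B. The most even pairs were RPS9 (1.01-fold), RPS6 (1.05-fold), RPS1 (1.09-fold) and RPS4 (1.099-fold). Of these, RPS6 and RPS4 have long stretches shared between the copies. The same copy was the larger in both strains in 21 pairs, and RPS29 and RPS9 were among the 3 exceptions. For RPS9 the copies were nearly equal.

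By place in the subunit, the median log2 ratio was −0.29 over 22 genes for head proteins and −0.15 over 34 for body and platform proteins. Of the head genes 8 (36.4%) were lower by at least 0.32, and of the body and platform genes 6 (17.6%), against 16.0% of all genes. The difference between head and body genes was not tested. The 36 genes with an intron had a median of −0.16 and the 20 without one of −0.21. Families found in all domains of life had a median of −0.17 over 24 genes, and the others one of −0.17 over 32. Over the 56 genes, which share both libraries, the Spearman rho of the log2 ratio was −0.05 with wild-type level, 0.07 with coding length and −0.05 with GC content.

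RPS14B and RPS22A lie 298 bp apart on chromosome X with their 3′ ends facing each other, and were at −0.15 and −0.40.

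Sequences upstream of the genes were searched on both strands for the binding motifs of 3 factors known at ribosomal protein genes, in the 500 bases before the start codon. The Rap1 sequence ACCCNNACA was found at 18 of the 56 genes (32.1%) and at 36 of the 81 large subunit genes (44.4%), against 5.41% of all protein-coding genes. The median log2 ratio of the 18 genes was −0.19 and that of the other 38 was −0.17. The Fhl1 core GACGCA was found at 6 genes (10.7%), against 10.2% of all, with a median log2 ratio of −0.29 for the 6 and −0.16 for the rest. Among the large subunit genes the medians with and without it were −0.28 and −0.21. The Abf1 consensus was found at 6 genes as well, against 19.5% of all, with a median log2 ratio of −0.33 for the 6 and −0.16 for the rest. That gap was not seen among the large subunit genes, where the medians with and without an Abf1 match were −0.21 and −0.22, and over all protein-coding genes they were 0.03 and −0.01. Both RPS28 copies, which form the lowest pair, are among these 6. A match describes the letters and shows no binding.

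The windows around the matches of the 3 genes are given on the strand of the gene, 5′ to 3′, from the R64 reference, because they stand before the lowest single gene and the lowest pair. For RPS13 the window lies 300 to 151 bases before the start codon (chrIV:579158-579307, plus strand), and the capitals mark the Rap1 match. For RPS28A (chrXV:649108-649257, minus strand) and RPS28B (chrXII:672881-673030, plus strand) it lies 250 to 101 bases before, and the capitals mark the Abf1 match, which is on the opposite strand in both.
RPS13: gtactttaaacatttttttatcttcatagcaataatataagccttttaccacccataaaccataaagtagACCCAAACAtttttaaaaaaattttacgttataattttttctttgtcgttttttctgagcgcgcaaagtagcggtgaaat
RPS28A: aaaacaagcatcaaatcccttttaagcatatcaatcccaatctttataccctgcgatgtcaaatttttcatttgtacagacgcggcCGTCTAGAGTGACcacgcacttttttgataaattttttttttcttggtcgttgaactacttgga
RPS28B: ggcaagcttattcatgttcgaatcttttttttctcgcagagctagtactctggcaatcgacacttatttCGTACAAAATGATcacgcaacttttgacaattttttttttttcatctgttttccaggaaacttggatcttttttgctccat

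The genes that regulate ribosomal protein transcription lay on both sides of the median gene. Of 21 such genes, 10 were below the median gene and the median log2 ratio was 0.01. At the size of 0.32, 5 (23.8%) were lower and 3 (14.3%) higher, against 16.0% and 20.4% of all genes. Lowest were the general regulatory factor genes ABF1, at −0.996 with 6365 and 2238 counts, and RAP1, at −0.83 with 14660 and 5799 counts. Highest were CRF1, whose product competes with the coactivator Ifh1, at 1.37 with 329 and 596 counts, and DOT6, for a repressor of ribosome biogenesis genes, at 0.93 with 24379 and 32524 counts. CRF1 was the only one of the 21 at least 2-fold changed.

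Chaperones of single small subunit proteins and late assembly factors of the subunit had a median of −0.21 over 25 genes, with 18 below the median gene. Of these 25, 4 (16.0%) were lower by at least 0.32 and 2 (8.0%) higher, against 16.0% and 20.4% of all genes. PNO1, for an assembly factor of the platform, was lowest at −0.50. TSR2, for the chaperone that delivers Rps26, followed at −0.37. Highest were NAP1, for a histone and ribosomal protein chaperone, at 0.36 and BUD23, for an rRNA methyltransferase, at 0.33. Proteins that bind the finished subunit, with the initiation factors on it, had a median of −0.11 over 14 genes, with 10 below, 1 (7.14%) lower by at least 0.32 and 0 higher. Lowest were SUI2, for a subunit of initiation factor eIF2, at −0.56 and ASC1, the yeast RACK1 gene, at −0.25. Highest were TIF11 at 0.27 and FUN12 at 0.16, for the initiation factors eIF1A and eIF5B. In the mitochondrial list RSM19 and MRPS12 were highest, at 0.82 and 0.67, and RSM22 and MRPS28 lowest, at −0.33 and −0.25.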

How the data were processed

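Whole read counts for every open reading frame were deposited by the authors, 1 column per library. According to the submitters' processing notes the reads passed through FastQC and Trimmomatic, alignment with TopHat2 2.1.1 and counting with Subread's featureCounts, on builds named sacCer3 and R64. Settings, strand included, are not stated. All 56 genes matched a locus tag and chromosome of the RefSeq R64 annotation, which supplied symbols, positions and sequences; it holds no UTRs.

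The scaling constant was 0.701, the median over protein-coding genes of the unscaled ratio at 100 counts or more. Intervals are 95% exact conditional (Clopper-Pearson) intervals of a ratio or share, and normal intervals on the log scale for differences between copies. Levels are counts per kb of coding exons per 1000000 counts. Calls used 2-fold, or 0.32 on the log2 scale, with an interval that excluded no change. With 1 library per strain no test was run, and precision is limited by unmeasured variation between cultures. Molecular identifiers are not mentioned, so repeated reads of the same molecule may be among the counts. The intervals treat each read as independent, cover counting error at most and may be too narrow.

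The named genes are the 8 single genes, the 6 most different pairs, the 4 highest and 4 lowest ratios, the 3 highest and 3 lowest levels, the 4 most even and 4 most uneven pairs, values outside 1.5 interquartile ranges, and the 2 highest and 2 lowest of each further list; other members are given in brief, and 7 members, counted in the group values, are not reported by name here. The members and lists were chosen with earlier results of these data known. The calculations, tested on simulated data, used Biopython 1.88, statsmodels 0.14.6, scipy 1.17.1, matplotlib 3.10.9, pandas 2.3.3, numpy 2.4.6 and Python 3.11.15, with DESeq2 1.42.0 and edgeR 4.0.16 (R 4.3.3) for scaling factors only. Alternatives were other scalings, count minimums of 0 or 500, 5 added to each count, removal of loess trends (span 0.3), and leaving out overlapping or poorly unique genes.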

Additional observations from a re-analysis of the deposited data

How the results depend on the processing

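No paired analysis was possible because only 1 library represents each strain, which also leaves no replicate to omit. The median log2 ratio of the small subunit genes stayed below 0 under all 11 alternatives tried. It was −0.19 when scaled by the total count of all rows and −0.19 by that of the protein-coding rows. It was −0.13 after removal of the trends with mean count and GC content and −0.24 after removal of the trend with coding length. The number of genes lower by at least 0.32 on the log2 scale ranged from 10 to 21. The number higher by that size was 0 except after removal of the trends with mean count and GC content, when it was 1 (RPS22B, from 0.11 to 0.34); the cause was not tested. No scaling gave a gene at least 2-fold changed. The number of pairs whose copies differ by at least 0.32 stayed at 3, and was 2 without RPS22, the pair with the overlapping snoRNA. The A copy had the larger level in 15 pairs per kb of whole gene and in 16 pairs per kb of unique sequence. Under the alternatives, 252 values were followed, for the small subunit genes chosen by the naming rule above. Of these, 3 lost the 0.32 size (RPS9A, RPS10B and RPS24B), all after removal of the trends with mean count and GC content. Another 9 gained it (8 lower and RPS22B higher). A further 2 changed sign, neither of them past that size (RPS24A after removal of the same trends, RPS0A after that of the length trend). Genes outside that rule are not among these values. Of those, RPS18A also lost the size after removal of the trends with mean count and GC content, at −0.29. RPS7A, RPS7B, RPS21A, RPS23B, RPS27B and RPS30B changed sign there, to at most 0.12.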
